A study of Homo sapiens with 8 samples.

Results

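This account concerns 41 interferon-stimulated and antigen presentation genes in Panc1, a long-established line from a human pancreatic ductal adenocarcinoma. They were taken by gene symbol from the table of 15176 genes, and all 41 were listed in it. The study asked how the transcriptome of these cells at low oxygen depends on the splicing factor SF3B1, as far as its groups show. RNA was sequenced in 8 libraries. Control siRNA cells at 21% oxygen (siCtrl normoxia) gave libraries 1 and 4, control siRNA cells at 1% oxygen (siCtrl hypoxia) gave libraries 2, 5 and 8, and SF3B1 siRNA cells at 1% oxygen (siSF3B1) gave libraries 3, 6 and 9, by the numbers in their titles. All libraries came from siRNA-treated cells of this 1 line, so the control cells carry a transfected siRNA too. A time of 8 hours at low oxygen is given for the siSF3B1 cells, and the wording does not settle whether it also holds for the control cells. SF3B1 siRNA at 21% oxygen was not analysed here. Separate cultures are not stated in the labels. The p-values therefore measure variation from library to library, which may be technical.

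Interferon-stimulated genes are the antiviral programme that cells switch on when cytosolic sensors of foreign RNA, or secreted interferons acting through the JAK-STAT pathway, activate IRF and STAT transcription factors. Type I and type III interferons act mainly through ISGF3, a complex that contains STAT2 and IRF9 and binds the interferon-stimulated response element (ISRE), while type II interferon acts at GAS elements and through IRF1. In epithelial tumour cells the same signals raise MHC class I and the machinery that loads it with peptides. Many of these genes also have a basal level without added interferon.

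Depth over the listed genes ran from 20496492 to 25257173 recovered reads per library. SF3B1 itself, the target of the siRNA and part of the U2 particle that marks branch points for splicing, stood between 8.70 and 8.88 log2 CPM (CPM is reads of a gene scaled to library size) in the 5 control libraries and between 5.18 and 5.44 in the 3 siSF3B1 libraries. All 8 ductal epithelial markers examined, among them KRT8, KRT18, KRT19 and EPCAM, were listed, with a summed level of 4910 to 6270 CPM in the control libraries and 8140 to 10900 CPM with SF3B1 siRNA. With the siRNA KRT8, KRT18 and KRT19 rose, KRT7 fell by 1.44 on the log2 scale and the other 4 did not pass, with a median log2 fold change of 0.02 over the 8. Of 12 leukocyte markers only CD14, CD68, ITGAM and FCER1G were among the listed genes. Their summed level was 109 to 154 CPM in siCtrl normoxia, 126 to 171 CPM in siCtrl hypoxia and 173 to 234 CPM with SF3B1 siRNA, and PTPRC and CD3E, which define leukocytes and T cells, were not among the listed genes. With SF3B1 siRNA CD14 and CD68 rose, by 1.16 and 0.44 on the log2 scale, and ITGAM fell by 1.01. Only COL1A1 and PDGFRB of 8 fibroblast and endothelial markers were listed, with a summed level of 12.9 to 54.5 CPM over all libraries. The part of the marker changes in the results below was not tested.

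SF3B1 siRNA in hypoxia raised most of the tested genes of this set, which was chosen with earlier results of these data known. Of the 41, 38 had a mean above 0 log2 CPM, that is above 1 CPM, and were tested, while IFI27, IFI44L and HERC6 fell under that level. Against siCtrl hypoxia, 24 of the 38 were higher and 2, OAS3 and PARP14, were lower (limma, Benjamini-Hochberg adjusted p under 0.05 over all tested genes), and 12 did not pass. The siRNA changed much of the transcriptome. Among all 13112 tested genes 66.0% passed, 35.0% higher and 30.9% lower, so that 63.2% of tested members were called higher against 35.0% of all genes, and 5.26% lower against 30.9%. The median log2 fold change was 0.56 over the tested members and 0.03 over all tested genes. Of 39 further tested interferon-stimulated genes outside this set, 35.9% were called higher and 25.6% lower, with a median of 0.15. As the cells were measured in bulk, a change in the share of cells that express a gene and a change in its RNA per cell cannot be told apart.

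The split between directions depended in part on how libraries were scaled. With plain read totals in place of the authors' scaling, the median of all tested genes moved from 0.033 to -0.098 on the log2 scale and that of the tested members from 0.558 to 0.426. That scaling gave 22 members higher and 5 lower, with 3551 of all genes higher and 4956 lower. A fit with the sets of title numbers (1 to 3, 4 to 6 and 7 to 9) as a block gave 28 members higher and 4 lower.

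**Figure D1:**
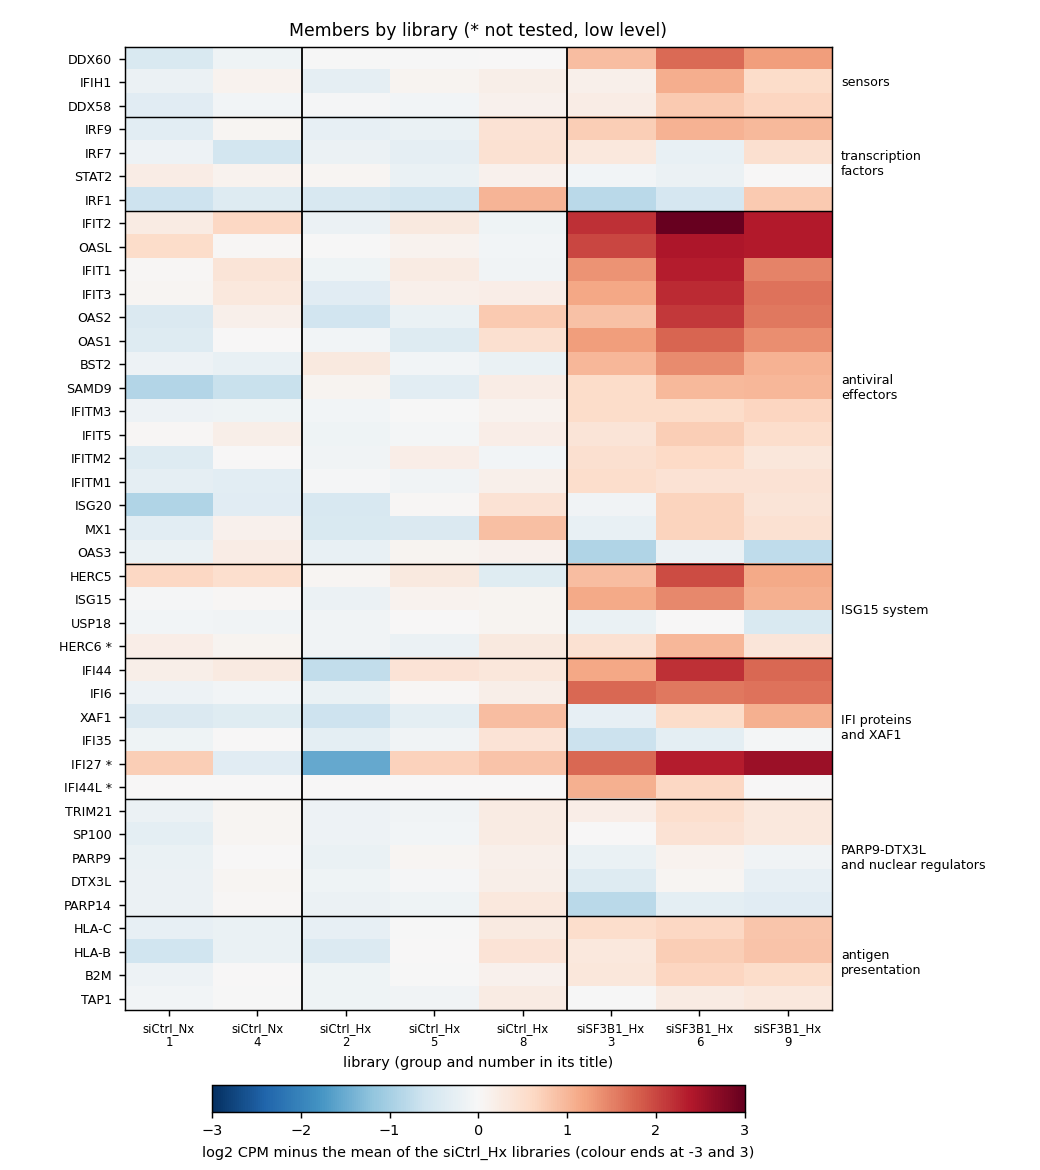
Heat map of the 41 genes (rows, by role) in the 8 libraries (columns, by group), coloured by log2 CPM minus the mean of the siCtrl hypoxia libraries. Most effector rows are higher in the 3 siSF3B1 libraries, and siCtrl hypoxia library 8 and siSF3B1 library 6 are higher than their group partners in most rows.

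The libraries of a group differed from each other more over these genes than over the transcriptome. The mean of the 38 tested members, relative to the siCtrl hypoxia mean, was -0.19 and -0.01 log2 units in siCtrl normoxia libraries 1 and 4, -0.20, -0.05 and 0.24 in siCtrl hypoxia libraries 2, 5 and 8, and 0.43, 0.90 and 0.74 in siSF3B1 libraries 3, 6 and 9. Every siSF3B1 library lay above every control library on this mean. Normoxia library 4 held the higher value of its pair for 31 of the 38 members, hypoxia library 8 the highest of its trio for 30, and siSF3B1 library 6 the highest of its trio for 26. Over all tested genes those libraries were highest for 53.5%, 34.2% and 39.0%. The median within-group SD was 0.163 log2 units for members against 0.0785 for all genes in siCtrl normoxia, 0.225 against 0.105 in siCtrl hypoxia and 0.249 against 0.134 with SF3B1 siRNA. The range within a group was wider than 1 log2 unit for 0, 5 and 8 members in those groups, and for 0.534%, 1.75% and 2.96% of all tested genes.

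Many of these genes carry a recognisable ISRE close to the transcription start, and the sequences are given to show it. In the RefSeq promoter windows (GRCh38.p14, 250 bases before to 50 after a start), 35 of the 41 were matched to at least 1 window. OASL, IFIT2, IFITM2, OAS2, IRF7 and USP18 were not. The ISRE core GAAA-NN-GAAA, searched on both strands with overlaps between matches allowed, lay in a window of 24 of those 35 genes (68.6%), against 463 of the 11647 listed genes with a window (3.98%) and 3.57% of all 35116 windows. The GAS motif TTC-NNN-GAA lay in windows of 11 members (31.4%) against 8.39% of listed genes. The hypoxia response core ACGTG lay in windows of 7 members (20.0%) against 32.0% of listed genes. A match of letters describes the sequence and does not show binding. The stretches below are 70 bases in the direction of transcription, with each ISRE core in capitals, read as TTTC-NN-TTTC where it lies on the opposite strand. The first 8 belong to genes that rose with SF3B1 siRNA, OAS3 and PARP14 to genes that fell, and TAP1 to a gene that did not pass the test.
ISG15 (chr1:1013357-1013426, plus strand): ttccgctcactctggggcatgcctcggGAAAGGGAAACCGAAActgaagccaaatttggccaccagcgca
IFIT1 (chr10:89392483-89392552, plus strand): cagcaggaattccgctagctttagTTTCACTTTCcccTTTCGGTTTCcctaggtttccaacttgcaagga
IFIT3 (chr10:89327828-89327897, plus strand): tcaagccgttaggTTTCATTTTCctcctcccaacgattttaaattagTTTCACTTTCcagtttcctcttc
IFITM3 (chr11:320865-320934, minus strand): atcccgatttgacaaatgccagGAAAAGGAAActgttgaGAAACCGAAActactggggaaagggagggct
BST2 (chr19:17405718-17405787, minus strand): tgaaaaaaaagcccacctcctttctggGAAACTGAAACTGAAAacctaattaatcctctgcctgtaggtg
IFI6 (chr1:27672294-27672363, minus strand): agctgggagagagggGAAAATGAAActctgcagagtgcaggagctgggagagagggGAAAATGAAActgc
DDX60 (chr4:168318784-168318853, minus strand): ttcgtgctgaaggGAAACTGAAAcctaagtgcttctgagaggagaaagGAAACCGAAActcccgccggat
B2M (chr15:44711346-44711415, plus strand): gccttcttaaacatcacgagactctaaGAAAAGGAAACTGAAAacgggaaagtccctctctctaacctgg
OAS3 (chr12:112938316-112938385, plus strand): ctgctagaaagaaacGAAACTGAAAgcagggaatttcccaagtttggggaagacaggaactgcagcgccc
PARP14 (chr3:122680780-122680849, plus strand): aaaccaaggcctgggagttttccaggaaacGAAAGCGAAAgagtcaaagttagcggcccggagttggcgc
TAP1 (chr6:32853796-32853865, minus strand): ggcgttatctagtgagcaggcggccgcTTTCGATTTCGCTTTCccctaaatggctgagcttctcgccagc

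In these stretches ISG15, BST2 and B2M share a layout in which neighbouring cores overlap, and TAP1 has the same layout on the opposite strand. IFIT1, IFIT3, IFITM3, IFI6 and DDX60 show separate cores. Counted from the start, the first core base lay at position -113 in ISG15, -116 in IFIT1, -144 in B2M and -143 in OAS3. OAS3 held another core at position -12. DTX3L and PARP9, which are transcribed away from each other, hold 1 and the same core between them, at position -6 from the start of DTX3L and -41 from that of PARP9. Presence of a core did not go with a single direction of change. Of 22 tested genes with a core, 15 rose, 2 fell and 5 did not pass, with a median log2 fold change of 0.57. Among these, 15 genes had 2 or more cores in 1 window, of which 13 rose, 1 fell and 1 did not pass, with a median of 0.60. Over all tested genes 35.0% rose and 30.9% fell. A relation of the number of cores to the calls was not tested. Of 10 tested genes without a core in their windows, 5 rose, 0 fell and 5 did not pass, with a median of 0.51. The 10 without a core include DDX58, IRF9, OAS1, HLA-B and HLA-C, all of which rose. They lack the strict core, in which 2 bases part the repeats. Looser forms are given here for some of them, but not for STAT2, IRF1 or IRF9. Windows of DDX58, OAS1 and XAF1 hold GAAACGAAA and that of IFI35 GAAATGAAA, with 1 base between. Windows of HLA-B, HLA-C and SP100 hold TTTCACTTC, 1 base short of the core. XAF1, IFI35 and SP100 did not pass. The medians therefore compare genes by the strict core only, and looser forms of the ISRE were not tested.

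**Figure D2:**
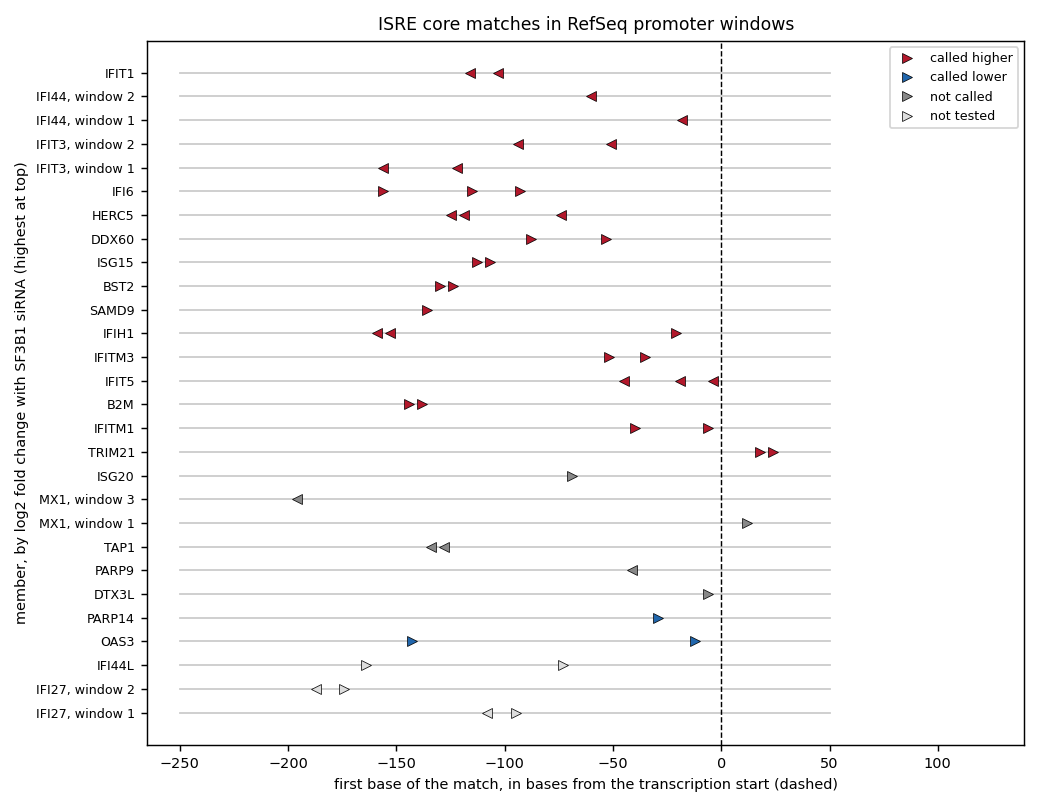
Position of each ISRE core (x axis, bases from the transcription start of the RefSeq window, 0 at the start) for the 24 genes with a core (y axis), coloured by the call with SF3B1 siRNA in hypoxia, with triangles pointing left for cores on the opposite strand. Most cores lie within 200 bases before the start, and the genes that rose, fell or did not pass are not separated by position.

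The 3 members classed here as RNA sensors were each called higher, beside 35.0% of all tested genes. OAS1, OAS2 and OAS3 are counted with the antiviral effectors below. DDX58, which encodes RIG-I, IFIH1, which encodes MDA5, and DDX60, a helicase linked to RIG-I signalling, were each higher with SF3B1 siRNA. Of 13 further tested genes of nucleic acid sensing, given below, 6 were called higher and 3 lower. The other 4, which did not pass, include DHX58 and EIF2AK2. DDX60 stood at 3.61 and 3.94 log2 CPM in siCtrl normoxia, at 4.06, 4.05 and 4.08 in siCtrl hypoxia and at 5.0, 5.76 and 5.31 with SF3B1 siRNA. The 3 siSF3B1 libraries lay above all 5 control libraries, and the log2 fold change against siCtrl hypoxia was 1.29 (SE 0.167, limma adjusted p = 7.23e-05), or 2.45-fold. DDX58 stood at 5.78 and 6.04 in siCtrl normoxia, at 6.07, 6.03 and 6.25 in siCtrl hypoxia and at 6.35, 6.91 and 6.77 with SF3B1 siRNA, a log2 fold change of 0.56 (SE 0.136, adjusted p = 0.0043). Its groups did not overlap, though siSF3B1 library 3 was only just above hypoxia library 8. IFIH1 stood at 4.38 and 4.67 in siCtrl normoxia, at 4.30, 4.64 and 4.74 in siCtrl hypoxia and at 4.72, 5.65 and 5.10 with SF3B1 siRNA, a log2 fold change of 0.60 (SE 0.208, adjusted p = 0.0273). Here siSF3B1 library 3 lay within the control range. The IFIH1 call was lost with plain read totals (adjusted p = 0.0675) and without hypoxia library 2 (0.104), siSF3B1 library 6 (0.0817) or siSF3B1 library 9 (0.0565).

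Among the 4 transcription factors only IRF9, the DNA-binding subunit of ISGF3, passed the test. That is 25% called higher, beside 35.0% of all tested genes. IRF9 (Entrez gene 10379, chr14:24161053-24166565 on the plus strand of GRCh38) stood at 2.72 and 3.10 log2 CPM in siCtrl normoxia, at 2.79, 2.84 and 3.46 in siCtrl hypoxia and at 3.76, 4.08 and 4.0 with SF3B1 siRNA. Hypoxia library 8 was the highest control and still lay under every siSF3B1 library. The log2 fold change was 0.92 (SE 0.189, limma adjusted p = 0.00162). A readthrough gene annotated over IRF9 shares 82.7% of its 50-base stretches, so reads of the pair cannot be told apart from these values. STAT2, the partner of IRF9 in ISGF3, stood at 4.91 and 4.79 in siCtrl normoxia, at 4.76, 4.49 and 4.83 in siCtrl hypoxia and at 4.62, 4.52 and 4.70 with SF3B1 siRNA, a difference of -0.08 (95% CI -0.31 to 0.15, adjusted p = 0.513). The siSF3B1 values all lay inside the hypoxia range. IRF7, which amplifies type I interferon production, stood at 3.91 and 3.52 in siCtrl normoxia, at 3.90, 3.79 and 4.52 in siCtrl hypoxia and at 4.39, 3.84 and 4.56 with SF3B1 siRNA, a difference of 0.19 (SE 0.226, adjusted p = 0.472).

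IRF1, the factor downstream of type II interferon, varied by library number instead of by group. It stood at 4.67 and 4.89 log2 CPM in siCtrl normoxia, at 4.81, 4.72 and 6.31 in siCtrl hypoxia and at 4.48, 4.77 and 6.07 with SF3B1 siRNA. Library 8 and library 9, which belong to different groups, were both more than 1 log2 unit above every other library, and its ranges of 1.59 and 1.58 were the widest of any tested member in the 2 hypoxic groups. The difference with SF3B1 siRNA was -0.18 (SE 0.453, 95% CI -1.19 to 0.83, limma adjusted p = 0.748), and its sign turned under some alternatives. The antisense gene IRF1-AS1 overlaps 22.0% of the exon length of IRF1 on the opposite strand, and the sources used here do not give whether counting used strand. XAF1 and MX1 were also highest by far in library 8 among the hypoxic controls. XAF1, a proapoptotic protein that binds XIAP, stood at 1.06 and 1.12 in siCtrl normoxia, at 0.86, 1.19 and 2.42 in siCtrl hypoxia and at 1.25, 2.04 and 2.55 with SF3B1 siRNA.

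**Figure D3:**
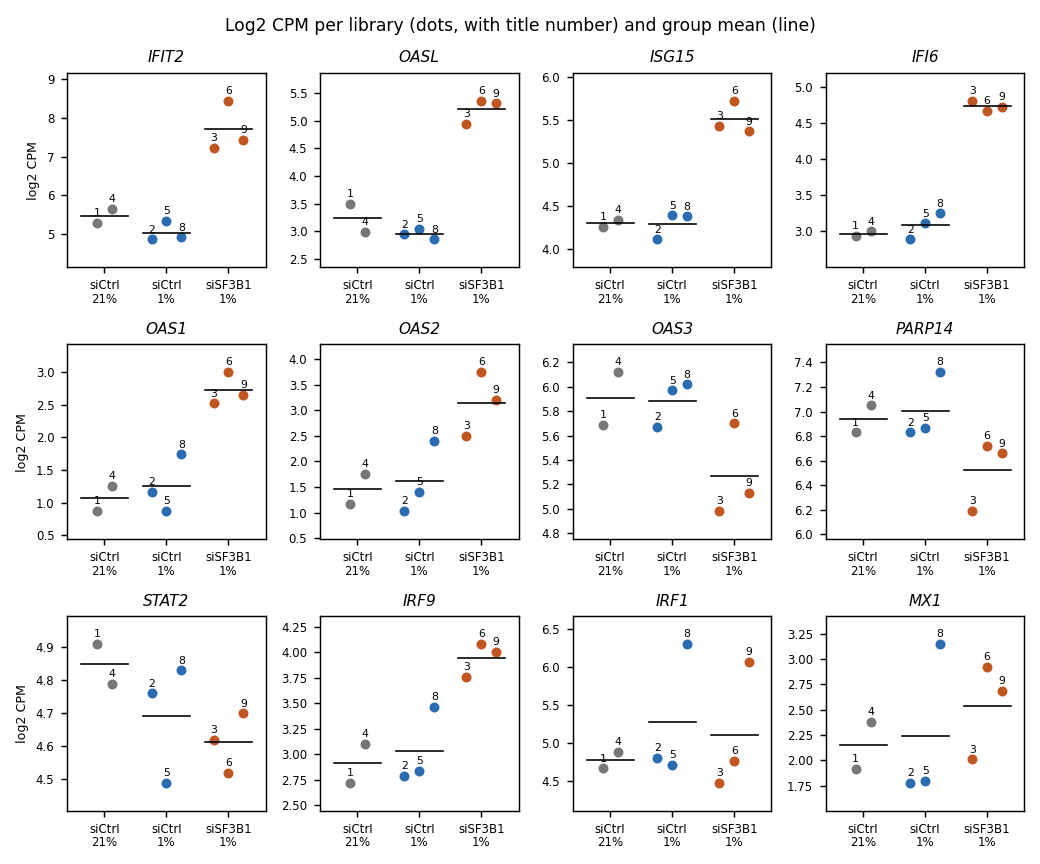
Log2 CPM of 12 of the genes in each library (points, labelled by title number) by group, with the group mean as a line. OASL and IFIT2 separate the siSF3B1 libraries from all controls, while IRF1 is high in libraries 8 and 9 of 2 different groups.

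Antiviral effectors held most of the larger rises. Of 15 tested, 12 rose (80%), OAS3 fell (6.67%), and MX1 and ISG20 did not pass, beside 35.0% higher and 30.9% lower of all tested genes. The median log2 fold change of the 15 was 0.83 and the range ran from -0.62 to 2.66. IFIT2 (Entrez gene 3433, chr10:89283694-89309276, plus strand), which encodes a tetratricopeptide protein that restricts viral translation, had the largest fold change of the tested members. It stood at 5.29 and 5.66 log2 CPM in siCtrl normoxia, at 4.87, 5.34 and 4.92 in siCtrl hypoxia and at 7.23, 8.44 and 7.43 with SF3B1 siRNA. The lowest siSF3B1 library lay more than 1 log2 unit above the highest control, and the log2 fold change was 2.66 (SE 0.268, limma adjusted p = 1.35e-05), or 6.31-fold. LIPA overlaps 1.58% of IFIT2 exon length on the opposite strand.

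OASL (Entrez gene 8638, chr12:121019111-121039242, minus strand), an OAS-like protein without 2-5A synthetase activity that enhances RIG-I signalling, stood at 3.49 and 2.99 log2 CPM in siCtrl normoxia, at 2.94, 3.04 and 2.85 in siCtrl hypoxia and at 4.94, 5.37 and 5.32 with SF3B1 siRNA. All 3 siSF3B1 libraries were close to each other and above every control. The log2 fold change was 2.27 (SE 0.153, limma adjusted p = 1.08e-06), the smallest p of the tested members. IFIT1, which binds viral RNA that lacks the methylated host cap, stood at 5.26 and 5.61 in siCtrl normoxia, at 5.08, 5.47 and 5.11 in siCtrl hypoxia and at 6.56, 7.57 and 6.71 with SF3B1 siRNA, a log2 fold change of 1.72 (SE 0.23, adjusted p = 9.25e-05). As for IFIT2, library 6 was the highest of the siSF3B1 trio. IFITM3, a membrane protein that blocks virus entry from endosomes, stood at 7.90 and 7.92 in siCtrl normoxia, at 7.97, 8.03 and 8.15 in siCtrl hypoxia and at 8.61, 8.59 and 8.70 with SF3B1 siRNA. Its change was smaller and its libraries tighter, with a log2 fold change of 0.58 (SE 0.0625, adjusted p = 2.08e-05).

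The remaining effectors that rose had log2 fold changes from 0.46 for IFITM1 to 1.67 for IFIT3. IFIT5 rose by 0.55 and IFITM2 by 0.47. IFITM1, IFITM2 and IFITM3 share 32.9%, 35.3% and 16.0% of their 50-base stretches with other annotated genes, mainly each other, so their separate values are uncertain. BST2, which encodes tetherin, an anchor that holds budding virions at the cell surface, rose by 1.15 (SE 0.175, limma adjusted p = 0.000231) from a range of 1.49 to 2.00 log2 CPM in the control libraries to 2.70 to 3.12. MX1, a dynamin-like GTPase, did not pass, with a difference of 0.30 (SE 0.364, adjusted p = 0.49). It stood at 1.92 and 2.38 in siCtrl normoxia, at 1.78, 1.80 and 3.15 in siCtrl hypoxia and at 2.01, 2.92 and 2.69 with SF3B1 siRNA. Hypoxia library 8 was the highest of all, and without it MX1 was called higher (adjusted p = 0.034). ISG20, an exonuclease that degrades RNA, differed by 0.32 (SE 0.264, adjusted p = 0.309) and was called higher with the block (0.046).

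The OAS family split by member. OAS1, OAS2 and OAS3 are synthetases whose 2-5A product activates RNase L. OAS1 stood at 0.87 and 1.26 log2 CPM in siCtrl normoxia, at 1.17, 0.87 and 1.74 in siCtrl hypoxia and at 2.52, 3.00 and 2.65 with SF3B1 siRNA, a log2 fold change of 1.46 (SE 0.239, limma adjusted p = 0.000356). OAS2 stood at 1.17 and 1.76, at 1.03, 1.41 and 2.40, and at 2.50, 3.74 and 3.20 in the same order, a log2 fold change of 1.54 (SE 0.379, adjusted p = 0.00482). For both genes the siSF3B1 libraries lay above all controls, for OAS2 narrowly over hypoxia library 8. OAS3 (Entrez gene 4940, chr12:112938352-112973249, plus strand) moved the other way, from 5.69 and 6.12 in siCtrl normoxia and 5.67, 5.97 and 6.02 in siCtrl hypoxia to 4.98, 5.70 and 5.13 with SF3B1 siRNA. Its log2 fold change was -0.62 (SE 0.183, adjusted p = 0.0129). Library 6 overlapped the controls, and the call was lost without siSF3B1 library 9 (adjusted p = 0.052). These signs held under every scaling tried.

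In the ISG15 system, the modifier and its main ligase rose while its protease did not pass. These 2 of 3 tested are 66.7% called higher, beside 35.0% of all tested genes. ISG15, a ubiquitin-like modifier, stood at 4.26 and 4.34 log2 CPM in siCtrl normoxia, at 4.11, 4.39 and 4.38 in siCtrl hypoxia and at 5.43, 5.73 and 5.37 with SF3B1 siRNA. The control libraries were close together and all lay under the siSF3B1 libraries, with a log2 fold change of 1.22 (SE 0.115, limma adjusted p = 8.72e-06). HERC5, the E3 ligase that attaches ISG15, stood at 2.59 and 2.47 in siCtrl normoxia, at 2.04, 2.27 and 1.61 in siCtrl hypoxia and at 2.90, 3.92 and 3.11 with SF3B1 siRNA, a log2 fold change of 1.34 (SE 0.255, adjusted p = 0.00101). Its hypoxic controls were the lowest libraries. USP18, which removes ISG15 and restrains type I interferon receptor signalling, stood at 3.52 and 3.50 in siCtrl normoxia, at 3.50, 3.60 and 3.69 in siCtrl hypoxia and at 3.39, 3.61 and 3.13 with SF3B1 siRNA. It differed by -0.22 (SE 0.129, adjusted p = 0.151), and was called lower with plain read totals (0.0339) and without siSF3B1 library 6 (0.0349). USP18 shares 23.4% of its 50-base stretches with other genes, chiefly USP41. HERC6, a relative of HERC5, was not tested. It had 12 and 12 reads in siCtrl normoxia, 9, 8 and 13 in siCtrl hypoxia and 13, 20 and 11 with SF3B1 siRNA.

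Of the IFI proteins and XAF1, IFI6 and IFI44 rose and IFI35 and XAF1 did not pass. These 2 of 4 tested are 50% called higher, beside 35.0% of all tested genes. IFI6 (Entrez gene 2537, chr1:27666061-27672218, minus strand), a small membrane protein that protects cells from apoptosis and restricts flaviviruses, stood at 2.94 and 3.00 log2 CPM in siCtrl normoxia, at 2.89, 3.11 and 3.25 in siCtrl hypoxia and at 4.81, 4.67 and 4.72 with SF3B1 siRNA. The siSF3B1 libraries were tight and far above the controls, and the log2 fold change was 1.65 (SE 0.112, limma adjusted p = 1.13e-06), or 3.14-fold. IFI44 was near the floor, with 21 and 25 reads in siCtrl normoxia, 10, 23 and 24 in siCtrl hypoxia and 39, 82 and 53 with SF3B1 siRNA, a log2 fold change of 1.70 (SE 0.349, adjusted p = 0.00163). All siSF3B1 counts were above all control counts. IFI35, which forms a complex with NMI, stood at 4.28 and 4.42 log2 CPM in siCtrl normoxia, at 4.11, 4.31 and 4.82 in siCtrl hypoxia and at 3.78, 4.11 and 4.36 with SF3B1 siRNA. Its difference of -0.33 (SE 0.187, adjusted p = 0.146) was called lower with the block (0.00291) and with plain read totals (0.0496). XAF1, whose values are given above, differed by 0.45 (SE 0.407, adjusted p = 0.35) and was called higher with the block (0.0436) and without hypoxia library 8 (0.0403).

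IFI27, a small hydrophobic membrane protein, and IFI44L were under the level for testing. IFI27 had 8 and 3 reads in siCtrl normoxia, 0, 7 and 9 in siCtrl hypoxia and 16, 26 and 27 with SF3B1 siRNA. The siSF3B1 counts were the highest, and with no filter on low values IFI27 was called higher (limma adjusted p = 0.00791). IFI44L had 0 reads in all 5 control libraries and 2, 1 and 0 with SF3B1 siRNA, so that no difference was detectable at this depth, where 3 reads are 0.114 to 0.158 CPM.

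The PARP9-DTX3L group and other nuclear regulators did not move as a group. Of 5 tested, TRIM21 rose, PARP14 fell and PARP9, DTX3L and SP100 did not pass. That is 20% higher and 20% lower, beside 35.0% and 30.9% of all tested genes. PARP14 (Entrez gene 54625, chr3:122680618-122730840, plus strand), a mono-ADP-ribosyltransferase, stood at 6.83 and 7.05 log2 CPM in siCtrl normoxia, at 6.83, 6.87 and 7.32 in siCtrl hypoxia and at 6.19, 6.72 and 6.66 with SF3B1 siRNA. Its siSF3B1 libraries lay below all controls, by little for library 6, and the log2 fold change was -0.48 (SE 0.159, limma adjusted p = 0.021). The call was lost without hypoxia library 8 (0.0808) or siSF3B1 library 3 (0.0665). TRIM21, a cytosolic antibody receptor and ubiquitin ligase, stood at 5.07 and 5.32 in siCtrl normoxia, at 5.11, 5.15 and 5.50 in siCtrl hypoxia and at 5.46, 5.76 and 5.58 with SF3B1 siRNA, a log2 fold change of 0.34 (SE 0.123, adjusted p = 0.0303). Its groups overlapped, and the call was lost with plain read totals (0.142) and without hypoxia library 2 (0.113), hypoxia library 5 (0.0989), siSF3B1 library 6 (0.0991) or siSF3B1 library 9 (0.0632).

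SP100, a component of PML nuclear bodies, stood at 4.98 and 5.33 log2 CPM in siCtrl normoxia, at 5.11, 5.18 and 5.50 in siCtrl hypoxia and at 5.28, 5.70 and 5.59 with SF3B1 siRNA, a difference of 0.26 (SE 0.142, limma adjusted p = 0.134). With the block it was called higher (0.0128). DTX3L, a ubiquitin ligase that acts in a heterodimer with PARP9, stood at 5.91 and 6.14 in siCtrl normoxia, at 5.95, 6.05 and 6.27 in siCtrl hypoxia and at 5.70, 6.14 and 5.85 with SF3B1 siRNA. It differed by -0.19 (SE 0.123, adjusted p = 0.189), and was called lower with the block (0.0451), with plain read totals (0.0338) and without siSF3B1 library 6 (0.0276). PARP9 differed by -0.07 (95% CI -0.34 to 0.20, adjusted p = 0.642). PARP9 and DTX3L exons overlap by 217 bases on opposite strands.

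MHC class I genes rose, and the peptide transporter subunit TAP1 did not pass. These 3 of 4 tested are 75% called higher, beside 35.0% of all tested genes. B2M, the light chain of class I molecules, stood at 8.90 and 9.06 log2 CPM in siCtrl normoxia, at 8.93, 9.04 and 9.19 in siCtrl hypoxia and at 9.40, 9.69 and 9.60 with SF3B1 siRNA. The siSF3B1 libraries lay above all controls, with a log2 fold change of 0.51 (SE 0.0923, limma adjusted p = 0.000685). HLA-C, a class I heavy chain, stood at 7.35 and 7.40 in siCtrl normoxia, at 7.35, 7.59 and 7.87 in siCtrl hypoxia and at 8.12, 8.22 and 8.44 with SF3B1 siRNA, a log2 fold change of 0.66 (SE 0.123, adjusted p = 0.00088). Its groups did not overlap. HLA-B, another heavy chain, stood at 6.61 and 7.0 in siCtrl normoxia, at 6.78, 7.20 and 7.61 in siCtrl hypoxia and at 7.51, 7.93 and 8.05 with SF3B1 siRNA. Library 3 lay under hypoxia library 8, and the log2 fold change was 0.63 (SE 0.203, adjusted p = 0.019). That call was lost without hypoxia library 2 (0.0731), siSF3B1 library 6 (0.0511) or siSF3B1 library 9 (0.0781). HLA-C and HLA-B share 6.17% and 2.12% of their 50-base stretches with other genes, chiefly other class I genes, and alignment of such polymorphic genes to a reference can split their reads.

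TAP1, which pumps peptides into the endoplasmic reticulum for loading, stood at 6.62 and 6.70 log2 CPM in siCtrl normoxia, at 6.58, 6.61 and 6.95 in siCtrl hypoxia and at 6.71, 6.95 and 7.02 with SF3B1 siRNA. The hypoxic groups overlapped, and the difference of 0.18 (SE 0.11, 95% CI -0.06 to 0.43, limma adjusted p = 0.167) was called higher with the block (0.0143). PSMB8-AS1 overlaps 9.49% of TAP1 exon length on the opposite strand.

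**Figure D4:**
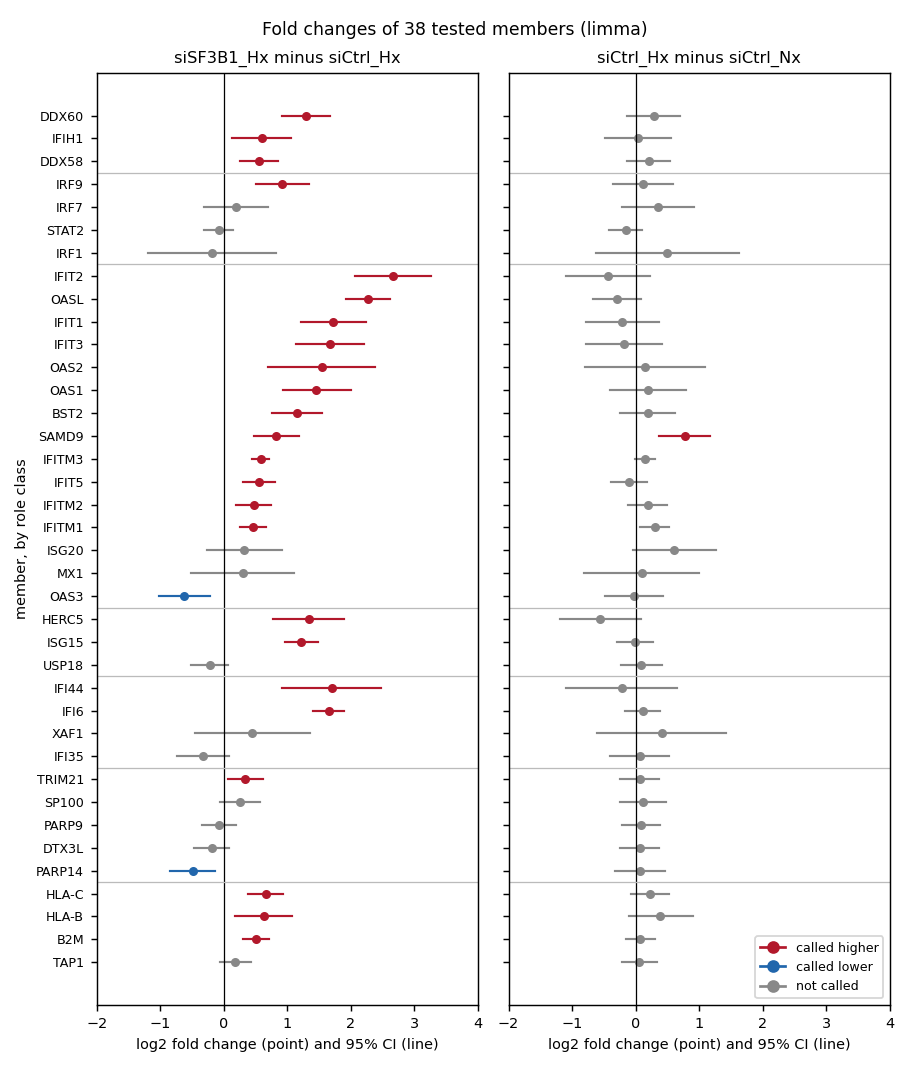
Log2 fold changes (points, x axis) with 95% confidence intervals from limma (lines) for the 38 tested genes by role, with SF3B1 siRNA in hypoxia on the left and with hypoxia alone on the right, coloured by call. On the left the points run from -0.62 for OAS3 to 2.66 for IFIT2, with 24 called higher and 2 lower, and on the right SAMD9 alone is called.

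The sets of title numbers pair each siSF3B1 library with a hypoxic control. Within them, 28 of the 38 members were higher with SF3B1 siRNA in all 3 sets and 3 were lower in all 3. This count was not made over all tested genes, so it cannot be set against a share of the transcriptome. Of the 26 called members, 21 kept their call and direction under every alternative that tested them, with libraries left out from the 2 groups compared. OAS1 and IFI44, among these 21, were not tested under the stricter filter of a mean above 2 log2 CPM. The other 5 are IFIH1, OAS3, TRIM21, PARP14 and HLA-B, and none of the 26 changed sign under these alternatives.

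Further genes of the pathway, from lists set apart from the 41, had shares of calls close to the whole transcriptome for higher calls and below it for lower calls. Of 89 tested, 33 rose (37.1%) and 20 fell (22.5%) with SF3B1 siRNA, against 35.0% and 30.9% of all tested genes, with a median log2 fold change of 0.20. Of these 53 calls, 15 were lost under some alternative. Interferon genes themselves were near or at the floor, and 5 of 9 were listed. IFNB1 had 0 reads in all libraries except for 1 read in siSF3B1 library 3. IFNL1 had 1 and 9 reads in siCtrl normoxia, 8, 4 and 17 in siCtrl hypoxia and 10, 36 and 11 with SF3B1 siRNA, and was highest in library 6. IFNL2 had 0 and 7, then 8, 2 and 3, then 5, 21 and 7 reads in the same order, and IFNL3 2 and 5, then 5, 2 and 5, then 4, 18 and 5. IFNL2 and IFNL3 share 32.0% and 31.4% of their 50-base stretches, chiefly with each other, so their separate counts are uncertain. Library 6 was the highest for all 3 of these type III interferon genes. IFNE, an epithelial type I interferon, had 8 and 3 reads in siCtrl normoxia, 2, 3 and 3 in siCtrl hypoxia and 9, 12 and 14 with SF3B1 siRNA, with every siSF3B1 library above every control. All 5 listed ligands were under the level for testing.

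The 15 receptor and JAK-STAT genes tested had a median log2 fold change of 0.35. Of them 7 rose (46.7%) and 2 fell (13.3%), beside 35.0% and 30.9% of all tested genes. SOCS3, a feedback inhibitor of JAK signalling, rose by 1.43 (SE 0.116, limma adjusted p = 3.14e-06), from between 5.01 and 5.38 log2 CPM in the 5 control libraries to 6.55, 6.49 and 6.85. The phosphatase PTPN2, which dephosphorylates JAK and STAT proteins, rose by 0.69, the STAT inhibitor PIAS1 by 0.54 and the kinase JAK1 by 0.37. The 2 chains of the type I interferon receptor went in opposite directions, IFNAR2 by 0.61 and IFNAR1 by -0.39, and IL10RB, a chain of the type III receptor, fell by 0.53. IFNAR2 and IL10RB share 43.1% and 42.6% of their 50-base stretches with other genes, both chiefly with AP000295.1, so their separate values are uncertain. The receptor chains are outside the naming rule and were chosen after their values were seen. PIAS1 and IFNAR2 exons overlap CALML4 and IL10RB-DT on the opposite strand by 30.2% and 39.1% of their length.

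For nucleic acid sensing the median over 13 tested genes was 0.26. Of these, 6 were called higher (46.2%) and 3 lower (23.1%), beside 35.0% and 30.9% of all tested genes. ADAR, which edits adenosines in double-stranded RNA and limits sensing of the cell's own RNA, stood at 8.37 and 8.39 log2 CPM in siCtrl normoxia, at 8.43, 8.41 and 8.58 in siCtrl hypoxia and at 7.33, 7.57 and 7.59 with SF3B1 siRNA. It fell by 0.98 (SE 0.0801, limma adjusted p = 3.32e-06), below all controls. STING1, the adaptor of cytosolic DNA sensing, rose by 1.44 (SE 0.125, adjusted p = 5.01e-06), from between 2.86 and 3.27 in the control libraries to 4.44, 4.61 and 4.44. MAVS, the adaptor on which RIG-I and MDA5 signal, fell by 0.82, from between 7.16 and 7.53 to 6.44, 6.60 and 6.41. TRIM25, a ubiquitin ligase of the RIG-I pathway, rose by 0.89. Outside the naming rule, the DNA sensor CGAS fell by 0.20 (SE 0.0731, adjusted p = 0.0358), and DHX58, a relative of RIG-I, did not pass at 0.26 (SE 0.21, adjusted p = 0.304). The CGAS call was lost with median-centred libraries (0.0578), with only the 2 groups compared (0.0508) and without hypoxia library 2 (0.0812), hypoxia library 8 (0.105) or siSF3B1 library 3 (0.107). Also outside the naming rule, TBK1, IKBKE, RNF135 and TICAM1 were called higher, by 0.51, 0.72, 0.44 and 0.27. The calls of IKBKE and TICAM1 were lost under some alternatives. DDX58, IFIH1, DDX60 and STING1 were thus called higher against siCtrl hypoxia, and MAVS, ADAR and CGAS lower. For IFIH1 siSF3B1 library 3 lay within the control range.

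Further interferon-stimulated genes gave 14 higher (35.9%) and 10 lower (25.6%) of 39 tested, near the 35.0% and 30.9% of all tested genes, and a median of 0.15. By the naming rule the 4 with the smallest p all fell. SAMHD1, a dNTP hydrolase that restricts retroviruses, fell by 1.86 (SE 0.153, limma adjusted p = 3.47e-06), from between 4.12 and 4.58 log2 CPM in the controls to 2.03, 2.66 and 2.43. TRIM5, a capsid-binding restriction factor, fell by 0.73, LAP3, an aminopeptidase, by 1.23 and SLFN11, which blocks stressed replication forks, by 1.00. TLDC2 overlaps 10.3% of SAMHD1 exon length on the opposite strand. The chemokine CCL5, chosen after its values were seen, rose by 2.70 (SE 0.436, adjusted p = 0.000337), from 3.46 and 4.51 in siCtrl normoxia and 3.68, 4.66 and 5.49 in siCtrl hypoxia to 6.67, 7.55 and 7.70. Its control libraries were widely spread but all lay below the siSF3B1 libraries.

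In antigen presentation beyond the 4 members, 6 of 22 tested genes were called higher (27.3%) and 5 lower (22.7%), both under the shares of 35.0% and 30.9% over all tested genes, with a median of 0.14. All 3 subunits of the RFX complex, which binds the promoters of MHC class II and class I genes, fell. RFX5 stood at 6.01 and 6.04 log2 CPM in siCtrl normoxia, at 6.02, 6.02 and 6.05 in siCtrl hypoxia and at 4.98, 5.10 and 4.87 with SF3B1 siRNA, a log2 fold change of -1.05 (SE 0.0721, limma adjusted p = 1.18e-06). RFXAP fell from 74 and 73 reads in siCtrl normoxia and 68, 68 and 79 in siCtrl hypoxia to 6, 10 and 3, a log2 fold change of -3.11 (SE 0.286, adjusted p = 7.33e-06). RFXANK fell by 0.88 (SE 0.0841, adjusted p = 9.52e-06). For each subunit the siSF3B1 libraries lay below all controls, while B2M and HLA-C lay above all controls in the same libraries. HLA-B was called higher, but its siSF3B1 library 3 lay under hypoxia library 8. CANX, a chaperone of class I folding, rose by 0.41. HLA-E, another class I heavy chain and outside the naming rule, rose by 0.91.

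**Figure D5:**
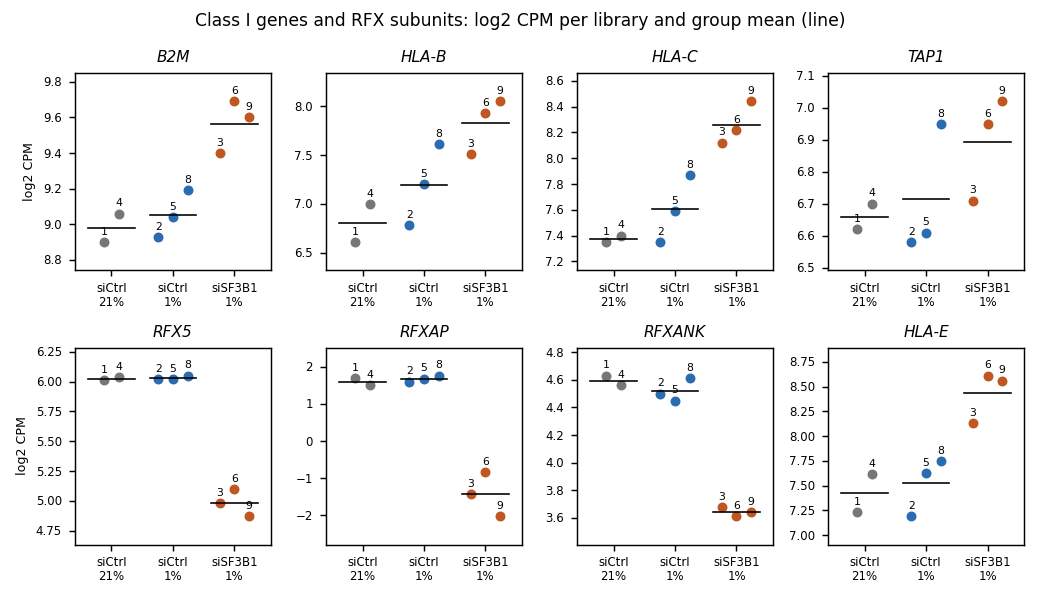
Log2 CPM per library (points, labelled by title number) of B2M, HLA-B, HLA-C, TAP1, HLA-E and the RFX subunits by group, with the group mean as a line. The RFX subunits are lower in all 3 siSF3B1 libraries, while B2M and HLA-C are higher in them than in every control library.

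Hypoxia alone gave few calls among these genes, as it did among all tested genes. Between siCtrl hypoxia and siCtrl normoxia 1 of the 38 tested members, SAMD9, was called higher and 0 lower, beside 5.65% of all tested genes, 4.35% higher and 1.30% lower. The median log2 fold change was 0.09 over members and -0.02 over all tested genes. SAMD9 (Entrez gene 54809, chr7:93099513-93118023, minus strand), an antiviral factor that restricts poxviruses, stood at 3.58 and 3.80 log2 CPM in siCtrl normoxia, at 4.55, 4.14 and 4.68 in siCtrl hypoxia and at 5.0, 5.42 and 5.45 with SF3B1 siRNA. Its 3 groups did not overlap. The log2 fold change was 0.77 with hypoxia (SE 0.178, limma adjusted p = 0.0332) and 0.83 with SF3B1 siRNA on top of hypoxia (SE 0.159, adjusted p = 0.00106); both comparisons use the same siCtrl hypoxia libraries. The hypoxia call was lost without normoxia library 1 (adjusted p = 0.25), normoxia library 4 (0.111), hypoxia library 2 (0.11) or hypoxia library 8 (0.113), and with voom (0.053). The other 37 ranged from -0.56 for HERC5 to 0.61 for ISG20, and 19 of them changed sign under some alternative. Of the 89 further pathway genes, IRF2 and APOL6 were called higher in hypoxia, by 0.54 (adjusted p = 0.00762) and 0.65 (0.0144). Both calls were lost without normoxia library 1 (0.11 and 0.16), and that of APOL6 also without hypoxia library 8 (0.0504).

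Against siCtrl normoxia, a comparison in which both the siRNA and the oxygen differ, 25 of the 38 members were higher in the siSF3B1 libraries and OAS3 alone was lower. Among all tested genes 62.4% passed, 34.1% higher and 28.3% lower. The members' median log2 fold change was 0.77 and that of all tested genes 0.06. Over the alternatives that kept both normoxia libraries, members called higher ranged from 21 with plain read totals to 28 without siSF3B1 library 3. Leaving out a normoxia library leaves 1 in that group, so only the effect size is given. The members' median was 0.726 without normoxia library 1 and 0.819 without normoxia library 4. The largest were IFIT2 at 2.22 (SE 0.3, limma adjusted p = 0.000122), OASL at 1.97, IFI6 at 1.76 and OAS2 at 1.68. SAMD9 was higher by 1.60 (SE 0.178, adjusted p = 3.38e-05). ISG20, which did not pass against siCtrl hypoxia, passed here at 0.93 (SE 0.296, adjusted p = 0.019). OAS3 was lower by 0.64 (adjusted p = 0.0199), with overlapping groups, and PARP14 did not pass at -0.42 (adjusted p = 0.0626).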

How the data were processed

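The table deposited by the authors holds log2 CPM (reads of a gene relative to library size, log2-transformed) for 15176 genes in each of the 8 libraries. The submitters' processing notes name GRCh38.p13, edgeR 3.24.3, featureCounts, Subread 1.5.0, SAMtools 1.9, STAR 2.7.0a and Trimmomatic 0.35 with no roles, and the use of strand in counting is not given. The TruSeq Stranded kit was used, per the labels' protocols. The log2 values stepped as whole reads do: 100.0% came out whole within 0.01 read. The prior count averaged 2.0 reads and draws fold changes of low genes toward 0. Intervals cover the spread between libraries only.

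The deposited log2 values were fitted with limma 3.58.1 in R 4.3.3, with 1 mean per group over all 8 libraries, an intensity trend and 5 residual degrees of freedom. Genes with a mean log2 CPM above 0 were tested, 13112 in all, and called at a Benjamini-Hochberg adjusted p under 0.05, two-sided. The script was tested on simulated data. Alternatives were the block by title-number set, plain read totals, quantile normalization, median-centred libraries, voom on recovered reads, a prior count of 0.5 reads, no filter, a mean above 2 log2 CPM, only the 2 groups compared, and leaving out each library. The pairing comes from the order of title numbers, whose meaning the labels do not give. Deviations from group means correlated between 0.344 and 0.43 within a set, in every pair.

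The members and lists were chosen with earlier results of these data known. By rule, values in full are given for up to 4 tested members per role with the smallest p with SF3B1 siRNA and for members called in hypoxia, and for up to 4 called genes per further list; others are named by range, count or a change of call. Gene positions, overlaps and shared 50-base stretches come from GENCODE 29 (GRCh38), promoter sequences from RefSeq (GRCh38.p14). Some genes are not reported here.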

Additional observations from a re-analysis of the deposited data

How the results depend on the processing

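With SF3B1 siRNA in hypoxia and with hypoxia alone, no called member changed direction under an alternative that tested it, but several counts moved. With the block by title-number set, members called lower with SF3B1 siRNA in hypoxia went from 2 to 4, and with plain read totals to 5; leaving out each library gave 1 to 4. Members called higher ranged from 21, without hypoxia library 2, siSF3B1 library 6 or siSF3B1 library 9, to 28, without hypoxia library 8. In hypoxia alone, members called higher were 2 with the block, 0 with voom and 0 to 1 on leaving out a library, and all genes called went from 741 to 1645 with the block and to between 278 and 604 on leaving out a siCtrl library, or between 632 and 881 on leaving out a siSF3B1 library. Plain read totals gave 505 genes higher and 275 lower in hypoxia, against 570 and 171, and the block 1048 and 597. Against siCtrl normoxia, members called lower with SF3B1 siRNA were 4 with the block, 3 with plain read totals, 2 with quantile normalization, 2 with only the 2 groups compared and 0 to 2 on leaving out a library, against 1, and plain read totals moved the median of all genes from 0.061 to -0.105. The cause was not tested. The block also called HLA-B higher in hypoxia (adjusted p = 0.0482), and beside the members already named it changed no other call among the 41 in the 2 comparisons that share the siCtrl hypoxia libraries. SP100 and TAP1 were also called higher without hypoxia library 8 or siSF3B1 library 3. Depth limits IFI27, IFI44L, HERC6 and the interferon genes, where 3 reads are 0.114 to 0.158 CPM.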
